A study of Mus musculus with 8 samples.

Results

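The collapsin response mediator proteins (CRMPs) are a family of 5 cytosolic proteins encoded in the mouse by Crmp1, Dpysl2, Dpysl3, Dpysl4 and Dpysl5. All 5 genes were measured, among 19356 genes in all, each by 1 probe set that carried exactly 1 gene symbol. The 8 arrays each carried RNA of 1 sample of caudal urogenital ridge, the tissue in which the kidney begins to form, dissected from mouse embryos at E10.75. There were 4 Sox11-/- samples and 4 wildtype samples, on a mixed genetic background and without treatment. The sources used here do not give the kind of Sox11 allele, nor whether a sample was 1 embryo or a pool. The family was chosen by its known differences between these same genotypes, with Dpysl5 among the lowest values, and the probe set of each gene was selected on its mean signal. The differences of its members between the genotypes are therefore a description, given without a test. All levels below are log2 RMA signals, all differences are Sox11-/- minus wildtype on the log2 scale, and n is 4 arrays for each genotype.

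CRMPs resemble dihydropyrimidinase, an enzyme of pyrimidine breakdown, but are not known to carry out its reaction. They form tetramers and act on tubulin, actin and vesicle traffic in growing axons and dendrites. CRMP2, the protein of Dpysl2, was found in chick neurons as a mediator of the growth cone collapse that the secreted guidance cue Sema3A (once called collapsin) evokes through neuropilin and plexin receptors. The kinases CDK5 and GSK3 phosphorylate CRMPs downstream of that cue. CRMP5, the protein of Dpysl5, is the member least alike in sequence. Sox11 is a SoxC transcription factor, and SoxC factors are known for switching on cytoskeletal genes of young neurons.

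Of the 5 members, 2 (Crmp1 and Dpysl5) had a promoter window in the RefSeq table (build GRCm38.p6), with 2 start sites for Crmp1. They are shown because no other member had a window, so none of Dpysl2, Dpysl3 or Dpysl4 could be set beside them. Both genes were lower in the Sox11-/- ridges and both lie on chromosome 5. Each line gives the 250 bases before the start, on the plus strand. Capitals mark matches to the Sox core motifs ACAAAG and ACAATG on either strand (CTTTGT and CATTGT on the other). The 2 motifs share their first letters but cannot match at the same position. The windows are chr5:30711314-30711563 for Dpysl5, chr5:37241808-37242057 for the first Crmp1 start and chr5:37245514-37245763 for the second.
Dpysl5: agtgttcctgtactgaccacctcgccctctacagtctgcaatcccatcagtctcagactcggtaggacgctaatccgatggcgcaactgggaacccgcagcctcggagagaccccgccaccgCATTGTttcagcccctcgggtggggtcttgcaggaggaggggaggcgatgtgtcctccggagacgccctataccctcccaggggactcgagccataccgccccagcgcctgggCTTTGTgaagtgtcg
Crmp1, first start: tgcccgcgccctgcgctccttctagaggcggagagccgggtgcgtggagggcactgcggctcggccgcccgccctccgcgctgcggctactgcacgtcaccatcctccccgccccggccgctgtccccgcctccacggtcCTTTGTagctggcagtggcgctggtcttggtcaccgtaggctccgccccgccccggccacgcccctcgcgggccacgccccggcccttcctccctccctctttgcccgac
Crmp1, second start: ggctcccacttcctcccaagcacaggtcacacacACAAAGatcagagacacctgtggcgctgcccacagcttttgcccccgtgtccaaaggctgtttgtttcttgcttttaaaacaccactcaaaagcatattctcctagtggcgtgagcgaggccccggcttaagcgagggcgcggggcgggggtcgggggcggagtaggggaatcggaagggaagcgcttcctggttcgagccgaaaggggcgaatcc

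The Dpysl5 window held 1 match to each motif, ACAATG at -128 to -123 and ACAAAG at -15 to -10 relative to the start. Each Crmp1 window held 1 match to ACAAAG, at -110 to -105 before the first start and at -216 to -211 before the second. Among all 32851 windows of the same length, 16.46% held ACAAAG, 10.69% held ACAATG, 25.24% held at least 1 of them and 1.91% held both. A match of so few letters is a description of the window and not a binding site. The windows were rich in G and C, at 62.8% for Dpysl5 and 75.6% and 59.6% for the Crmp1 starts, against a median of 52.4% over all windows. They held 17, 30 and 16 CpG dinucleotides in that order, against a median of 6.0.

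Sox11 had log2 signals of 9.24, 9.13, 8.93 and 9.12 in the Sox11-/- arrays, against 11.76, 11.81, 11.72 and 11.86 in the wildtype arrays. The targeted gene fell by 2.69 (SE 0.08, log2 scale) and was lower on every Sox11-/- array, as the labels say. No source used here says whether its probes lie in the deleted part. The arrays correlated at 0.987 to 0.995 across genes, which are not independent replicates. Over all genes, limma called 209 lower and 70 higher in Sox11-/- ridges at an adjusted p under 0.05, which is 1.08% and 0.362% of them and 1.44% together. Of 15 marker genes of the caudal urogenital ridge, 14 had a mean signal above 7.30, the median of all probe sets. All 8 endothelial markers did so too, so this count does not identify the tissue. The Y-linked genes Eif2s3y, Kdm5d and Uty gave high signal on 2 Sox11-/- arrays (replicates 3 and 4) and 1 wildtype array (replicate 1), so embryo sex was not evenly spread.

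The CRMP family split into 3 genes with much lower signal in the Sox11-/- ridges and 2 with differences near 0. Dpysl5, Dpysl4 and Crmp1 were lower, at 43.4%, 48.6% and 60.9% of the wildtype signal on the linear scale, while Dpysl3 and Dpysl2 were at 91.7% and 95.4%. All 5 differences lay below 0, with a median of -0.72, against -0.000496 over all genes. In the fit over all genes 3 of 5 members were called lower (percentage over all genes 1.08%), 0 higher (0.362%) and 2 were not called (1.44% of all genes were called in either direction). The 4 Sox11-/- arrays lay wholly to 1 side of the 4 wildtype arrays in 3 of 5 members, where 10.5% of all genes did so in either direction. The members were chosen with this comparison known, so nothing is read from these counts.

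**Figure D1:**
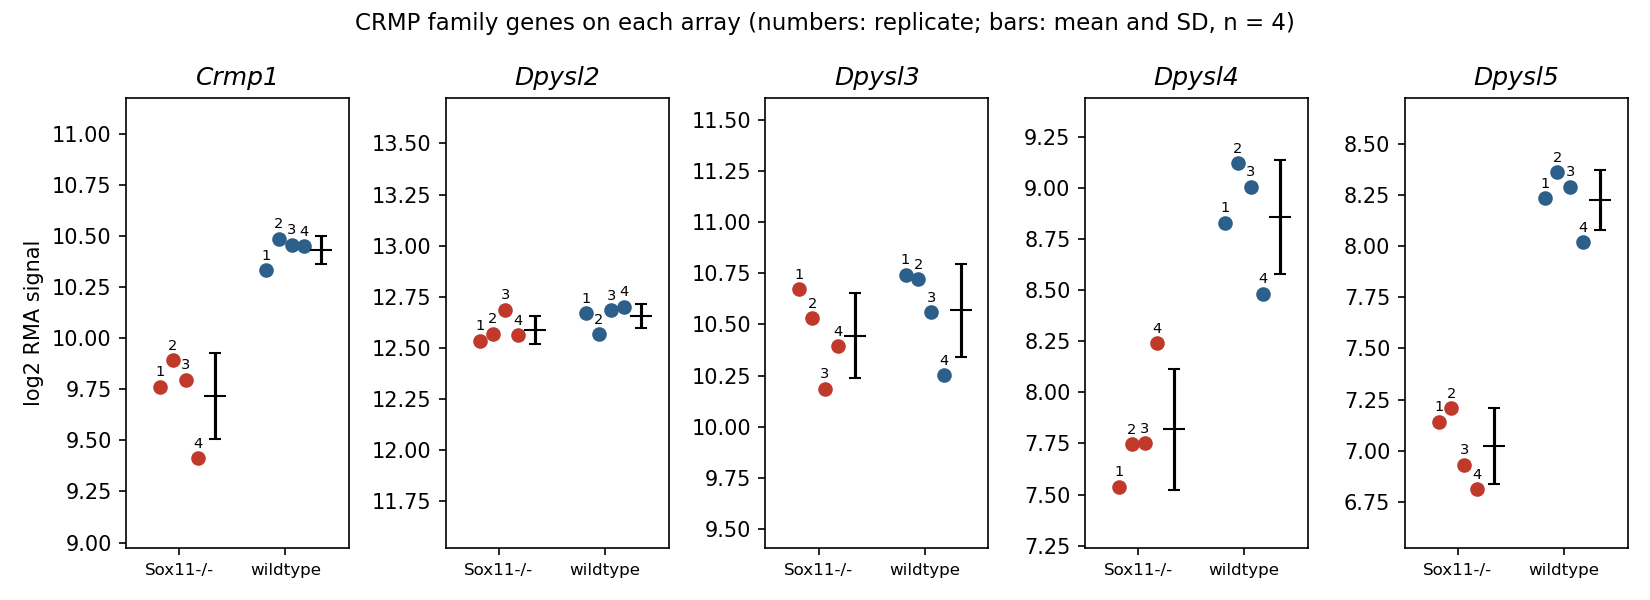
Log2 RMA signal (vertical axis, a span of the same height in each panel) of the 5 CRMP genes on each array, with Sox11-/- arrays in red and wildtype arrays in blue, replicate numbers above the points, and bars for the mean and SD (n = 4). The points of the genotypes are apart for Crmp1, Dpysl4 and Dpysl5 and overlap for Dpysl2 and Dpysl3.

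Dpysl5 encodes CRMP5, which in cultured rodent neurons counters the neurite outgrowth that CRMP2 promotes. It had 7.14, 7.21, 6.93 and 6.81 in the Sox11-/- arrays, against 8.24, 8.36, 8.29 and 8.02 in the wildtype arrays. No array overlapped, and the highest Sox11-/- array (replicate 2) lay 0.81 below the lowest wildtype array (replicate 4). The mean was 7.02 ± 0.18 in Sox11-/- and 8.23 ± 0.15 in wildtype ridges (SD, n = 4 each), a difference of -1.20 (SE 0.10), or 2.30-fold lower. Its difference was the 12th lowest of 19356 genes, and the difference was 7.22 times the SD within a genotype.

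Dpysl4 encodes CRMP3, a member known from dendrites of hippocampal neurons in mice. It had 7.54, 7.75, 7.75 and 8.24 in the Sox11-/- arrays, against 8.83, 9.12, 9.01 and 8.48 in the wildtype arrays. The groups did not overlap, but the highest Sox11-/- array and the lowest wildtype array, both of them replicate 4, were only 0.24 apart. The mean was 7.82 ± 0.30 in Sox11-/- and 8.86 ± 0.28 in wildtype ridges (SD, n = 4 each), a difference of -1.04 (SE 0.16), or 2.06-fold lower. It had the widest spread of the 5 members, with a pooled SD of 0.29, against a median of 0.12 over all genes. Its call in the fit over all genes was lost without wildtype replicate 2, which left 2 of 5 members called.

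Crmp1 encodes CRMP1, which takes part in the response of neurons to Sema3A and binds the actin crosslinker filamin A. It had 9.76, 9.89, 9.80 and 9.41 in the Sox11-/- arrays, against 10.33, 10.49, 10.46 and 10.45 in the wildtype arrays. No array overlapped, with a gap of 0.44, and Sox11-/- replicate 4 was the lowest of all. The mean was 9.72 ± 0.21 in Sox11-/- and 10.43 ± 0.07 in wildtype ridges (SD, n = 4 each), a difference of -0.72 (SE 0.10), or 1.64-fold lower. This difference was the 58th lowest of all genes.

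Dpysl2 encodes CRMP2, which binds tubulin dimers and promotes axon growth. It had 12.53, 12.57, 12.69 and 12.56 in the Sox11-/- arrays, against 12.67, 12.57, 12.68 and 12.70 in the wildtype arrays. The groups overlapped and the spread was small. The mean was 12.59 ± 0.07 in Sox11-/- and 12.66 ± 0.06 in wildtype ridges (SD, n = 4 each), a difference of -0.07 (SE 0.06).

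Dpysl3 encodes CRMP4, which binds actin filaments in growth cones. It had 10.67, 10.53, 10.19 and 10.39 in the Sox11-/- arrays, against 10.74, 10.72, 10.56 and 10.25 in the wildtype arrays. The groups overlapped over most of their range. The mean was 10.44 ± 0.21 in Sox11-/- and 10.57 ± 0.23 in wildtype ridges (SD, n = 4 each), a difference of -0.12 (SE 0.13), which is smaller than the pooled SD of 0.22.

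Set member against member, the difference of Dpysl2 exceeded that of Dpysl5 by 1.14 on the log2 scale, that of Dpysl4 by 0.97 and that of Dpysl3 by 0.06, the last being less than the SD of either gene. The difference of Dpysl3 exceeded those of Dpysl5 and Dpysl4 by 1.08 and 0.92. Among the 3 lower members the difference of Crmp1 exceeded that of Dpysl5 by 0.49 and that of Dpysl4 by 0.33, and those of Dpysl4 and Dpysl5 were 0.16 apart, within the SD of Dpysl4. A level cannot be compared between members, because each probe set has its own response. The members have related coding sequences, and how far the probes of 1 member also read another was not tested.

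Within a genotype the members did not all move together. Among the Sox11-/- arrays, replicate 4 was lowest for Crmp1 and Dpysl5 (0.30 and 0.21 below the genotype mean) but highest for Dpysl4 (0.42 above it). Among the wildtype arrays, replicate 4 was lowest for Dpysl3, Dpysl4 and Dpysl5, at -0.32, -0.38 and -0.21 from the genotype mean, while for Crmp1 it was 0.02 above the mean. Dpysl2 stayed within 0.10 of its genotype mean on every array.

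**Figure D2:**
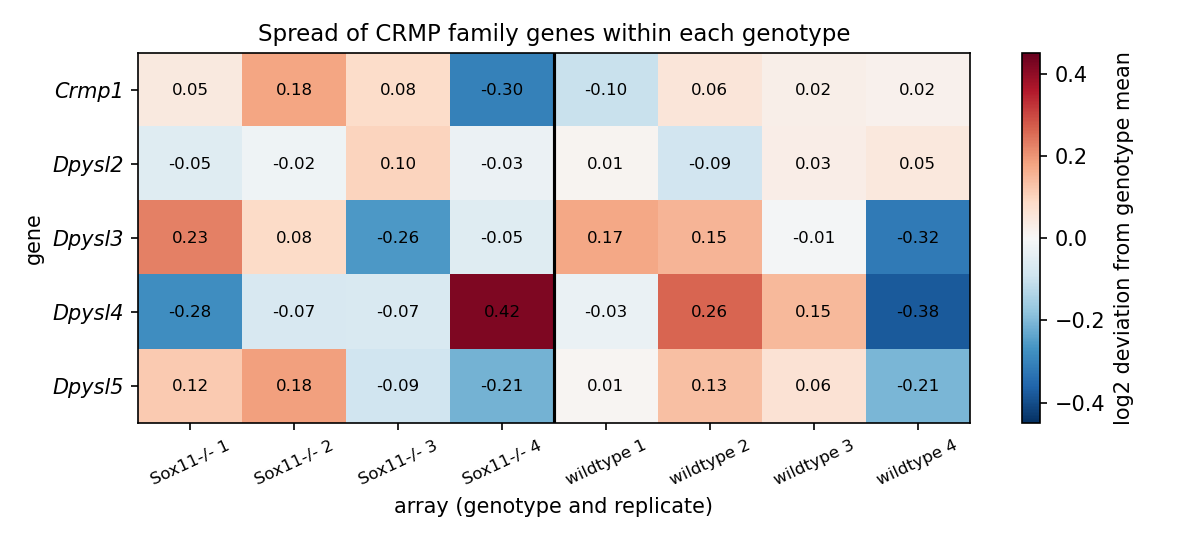
Deviation of each CRMP gene (rows) on each array (columns, Sox11-/- left of the line and wildtype right of it) from the mean of its genotype, in log2 units, with red above and blue below the mean. The widest deviations are 0.42 for Dpysl4 on Sox11-/- replicate 4 and -0.38 for Dpysl4 on wildtype replicate 4.

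The genes upstream of CRMPs, taken from lists of pathway genes, showed 1 call. Among the class 3 semaphorins, the secreted cues, 1 of 7 genes was called higher, 0 lower, and the median difference was 0.11. This was Sema3c, known for guiding neural crest cells and for outflow tract development. It had 10.58, 10.49, 10.86 and 10.89 in the Sox11-/- arrays, against 10.30, 9.76, 10.02 and 10.00 in the wildtype arrays, and no array overlapped. Sema3c thus rose by 0.68 (SE 0.13, limma adjusted p = 0.0289), in 4 of 4 Sox11-/- arrays above every wildtype array. Its call was lost without Sox11-/- replicate 1, 3 or 4 and without wildtype replicate 2, 3 or 4 (limma adjusted p from 0.0593 to 0.0933). Sema3a, the cue by which the family was found, differed by 0.11 (limma adjusted p = 0.75). Sema3b was at 0.17 and Sema3f at -0.11 (limma adjusted p = 0.23 and 0.49).

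Of the 8 receptor genes, neuropilins, plexins and L1cam, limma called 0, with 2 at an unadjusted p under 0.05. That threshold was passed by 3227 of all 19356 genes, or 16.7%, against which this count and those for the lists that follow are to be read. These were Plxna2 at 0.23 (SE 0.10) and Nrp1 at 0.24 (SE 0.10), which encodes the Sema3A-binding neuropilin, both with a limma adjusted p of 0.26, while Plxna3 was at -0.10. Of 14 measured genes of kinases that phosphorylate CRMPs or act with these kinases, limma called 0, with 3 at an unadjusted p under 0.05 (16.7% of all genes) and a median of -0.01. Those were Camk2d at 0.35 (SE 0.10), Fyn at -0.22 (SE 0.07) and Cdk5r1, which encodes the p35 activator of CDK5, at -0.18 (SE 0.07), with limma adjusted p-values of 0.11, 0.15 and 0.21. Cdk5 and Gsk3b themselves were at -0.08 and -0.13 (limma adjusted p = 0.63 and 0.33).

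Among 18 measured genes of proteins that bind CRMPs or are carried with them, 2 were called lower and 0 higher, with a median of -0.06. Tubb2b encodes a beta-tubulin of migrating and growing neurons. It had 11.08, 11.08, 10.89 and 11.11 in the Sox11-/- arrays, against 11.77, 11.72, 11.77 and 11.37 in the wildtype arrays. Tubb2b fell by 0.62 (SE 0.10 in log2 units; limma adjusted p = 0.0150), with no overlap between the groups. Kif5c encodes a neuronal heavy chain of kinesin-1, the motor through which CRMP2 carries tubulin. It had 7.68, 7.57, 7.46 and 7.72 in the Sox11-/- arrays, against 8.24, 8.46, 8.42 and 7.98 in the wildtype arrays. Kif5c fell by 0.67 (SE 0.11, limma adjusted p = 0.0171), again with no overlap.

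With the replicate number as a block the limma adjusted p of Tubb2b was 0.0511 and that of Kif5c 0.0633, and without wildtype replicate 2 they were 0.0548 and 0.0542. Kif5c was also lost without Sox11-/- replicate 3 (limma adjusted p = 0.0517). Chn1, which encodes a chimaerin reported to bind CRMP2, was at -0.30 (SE 0.08, limma adjusted p = 0.11). Klc1, the kinesin light chain that CRMP2 contacts, was at 0.18, and Tuba1a, an alpha-tubulin, at -0.22 (limma adjusted p = 0.46 and 0.18). The enzymes of pyrimidine breakdown, which the family resembles in sequence, had 0 of 5 measured genes called, with 1 at an unadjusted p under 0.05 (Upb1 at 0.26), and Dpys, the dihydropyrimidinase itself, was at 0.14 (SE 0.11, limma adjusted p = 0.55). Dpyd, the first enzyme of that route, was at 0.08 (limma adjusted p = 0.77).

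**Figure D3:**
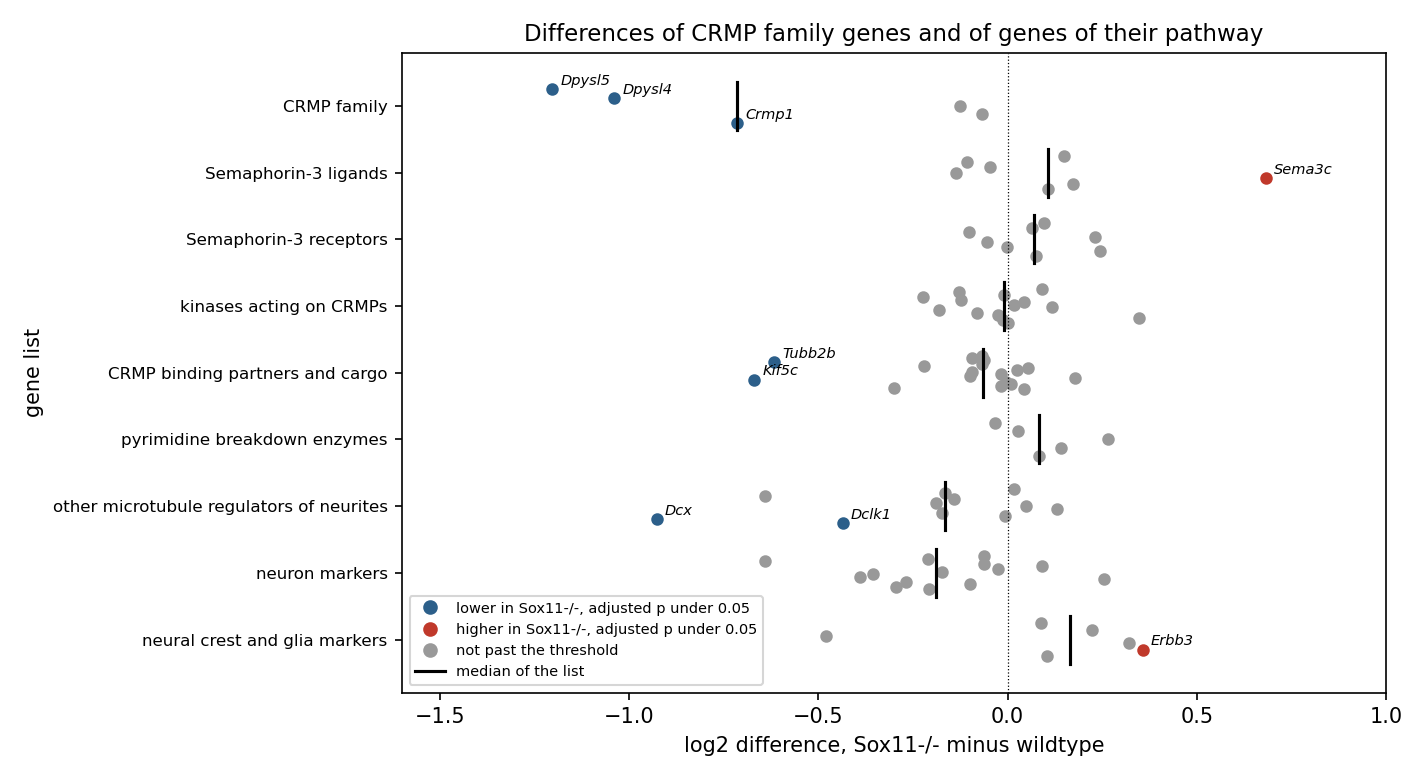
Log2 difference, Sox11-/- minus wildtype (horizontal axis), of each gene in the CRMP family and in 8 lists (rows), where a point is a gene, a black bar the median of the list, and colour marks genes past a limma adjusted p of 0.05. Dpysl5, Dpysl4 and Crmp1 lie at -1.20, -1.04 and -0.72, and the called genes of the lists lie between -0.93 (Dcx) and 0.68 (Sema3c).

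The other microtubule regulators of growing neurites had 2 of 11 genes called lower and 0 higher, with a median of -0.16. Dcx, which encodes doublecortin, a microtubule-binding protein of migrating neurons, fell by 0.93 (SE 0.18, limma adjusted p = 0.0384). Its arrays read 7.45, 7.38, 8.19 and 7.79 in Sox11-/- ridges, against 8.41, 8.38, 8.83 and 8.90 in wildtype ridges. Dclk1, the doublecortin-like kinase, had 7.63, 7.33, 7.40 and 7.69, against 7.93, 7.92, 7.91 and 8.02 in wildtype ridges. It fell by 0.44 (SE 0.09, limma adjusted p = 0.0417). Neither gene overlapped between the genotypes. The call of Dcx was lost when any 1 array other than Sox11-/- replicate 3 was left out (limma adjusted p up to 0.113), and that of Dclk1 when any array other than Sox11-/- replicate 4 was left out (up to 0.109). Map1b, which encodes a microtubule-associated protein of growing axons, was at -0.01 (limma adjusted p = 0.99).

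With all 8 arrays in the fit, the neuron markers lay nearer to 0 than the 3 lower CRMP genes. The CRMP genes were chosen with their differences known, so nothing is read from this contrast. Stmn2 and Tubb3 were also counted in the lists above, and Dcx was not in the marker list. Of 14 measured neuron markers 12 lay below 0, with a median of -0.19 and differences from -0.64 to 0.26. Limma called 0 of them, and 3 were lower at an unadjusted p under 0.05, where 16.7% of all genes passed in either direction. These were Elavl4 at -0.30, Stmn2 at -0.64 and Ina at -0.27 (limma adjusted p = 0.17, 0.21 and 0.23). Without wildtype replicate 3, Stmn2 was at -0.89 and was called (limma adjusted p = 0.0449). The mean log2 signal over the 14 markers was between 7.18 and 7.56 on the Sox11-/- arrays, against 7.37 to 7.64 on the wildtype arrays, so the genotypes overlapped. By array it was 7.56, 7.18, 7.23 and 7.39 in Sox11-/-, against 7.60, 7.64, 7.37 and 7.45 in wildtype ridges. Of these markers 6 had a mean above the median of all probe sets, and Tubb3 read only 6.39 to 6.93 in Sox11-/- and 6.46 to 6.91 in wildtype ridges. The part that neuron content plays in the CRMP values was not tested, and fewer cells of a type and less RNA per cell cannot be told apart in bulk tissue.

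Sox11-/- replicate 1 had the highest neuron marker mean and the lowest Dpysl4 of its genotype. Sox11-/- replicate 2 had the lowest marker mean and the highest Crmp1 and Dpysl5 of its genotype. Wildtype replicate 2 had the highest marker mean of its genotype together with the highest Crmp1, Dpysl4 and Dpysl5. Wildtype replicate 3 had the lowest marker mean of its genotype, with Crmp1, Dpysl4 and Dpysl5 above their wildtype means. Each of these orderings rests on 1 array, and nothing is read from them. Of 6 measured neural crest and glia markers 5 lay above 0 (median 0.16). Erbb3, a receptor of crest-derived glia, rose by 0.36 (SE 0.07, limma adjusted p = 0.0417), with arrays between 9.02 and 9.20 in Sox11-/- ridges, against 8.63 and 8.87 in wildtype ridges. This call was lost when any 1 array was left out (limma adjusted p from 0.0569 to 0.113). Foxd3, a transcription factor of early crest, went the other way at -0.48 (limma adjusted p = 0.23), and Fabp7 was at 0.32 (limma adjusted p = 0.32). All 7 measured erythroid markers lay below 0 (median -0.32), with 0 called and 4 at an unadjusted p under 0.05, among them Rhag at -0.45, Epb42 at -0.38 and Alas2 at -0.32. Their mean was 8.64 to 9.02 on the Sox11-/- arrays, against 8.77 to 9.42 on the wildtype arrays. The 10 muscle and somite markers went both ways, with 6 above 0, 4 below and a median of 0.07. Meox2 and Uncx were called lower, at -0.50 and -0.88 (limma adjusted p = 0.0117 and 0.0148), and Uncx was lost without Sox11-/- replicate 1 (limma adjusted p = 0.0505). Meox1 was at -0.94 without overlap (limma adjusted p = 0.0517). It was called lower with arrays centred on their medians, the level filter, array weights or the Y-linked covariate. The same held without Sox11-/- replicate 3 or wildtype replicate 4 (limma adjusted p from 0.0162 to 0.0494 over these fits). Under the other alternatives Meox1 was not called. Des, the intermediate filament gene of muscle, was at 0.38 without overlap (limma adjusted p = 0.0600), and was called higher with trended, robust moderation and when genes of the lowest 25% of levels were dropped (limma adjusted p = 0.0227 and 0.0456). Among 8 endothelial markers 0 were called and 0 had an unadjusted p under 0.05, with Emcn, Cdh5 and Esam at 0.18, 0.15 and 0.12.

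In the ridge list 1 of 15 genes was called higher (Ret, 0.41) and 1 lower (Six2, -0.48), while 9 had an unadjusted p under 0.05, 4 of them higher and 5 lower. Lhx1, a transcription factor of the nephric duct, was at 0.42 (limma adjusted p = 0.0577). Among the alternatives it was called higher only with the level filter (limma adjusted p = 0.0453). Ret was lost without Sox11-/- replicate 1, 2 or 3 and without wildtype replicate 2 or 3 (limma adjusted p from 0.0517 to 0.0764). Six2 was lost without each array other than wildtype replicate 1 (limma adjusted p from 0.0519 to 0.122). The part of these cell types in the CRMP values was not tested.

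Likeness to each member that differed by at least 0.5 was measured as the root mean square distance between profiles over the 8 arrays, after each gene's mean over the arrays was subtracted. Genes with provisional symbols (Gm with a digit, Rik or LOC) were left out of this ranking. Because the genotypes differ in these members, genes that are near share that difference, and the member's highs and lows among arrays, by construction, and the distances are a description. The genes nearest to Dpysl5 were Slc29a4, a monoamine transporter (distance 0.14), Soga3 (0.15), Prom1, which encodes the membrane glycoprotein prominin-1 (0.16), Mcoln3, a mucolipin cation channel (0.20), and Sema6c, a transmembrane semaphorin (0.20). Their differences were -1.12, -1.05, -0.94, -0.83 and -1.03 in that order. For Dpysl4 they were Iglon5, an adhesion protein of the IgLON group (0.19), Astn1, a neuronal migration protein (0.19), the organic anion transporter family gene Slco5a1 (0.20), Sema6c (0.21) and Zcchc18 (0.21). Sema6c was near both members.

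For Crmp1 the nearest were Elovl2, a fatty acid elongase (0.06), Rrm2, a ribonucleotide reductase subunit (0.08), Gpc2, a glypican of developing axons (0.08), Fbrsl1 (0.11) and Slc12a7, a potassium-chloride cotransporter (0.12). No nearest gene of Crmp1 was also among those of Dpysl4 or Dpysl5. The distance depends on the size of the genotype difference, which was smaller for Crmp1. Nothing is therefore read from which nearest genes the members share. Rrm2 lies on chromosome 12, as Sox11 does. Gpc2 and Fbrsl1 lie on chromosome 5 with Crmp1, Slc29a4 and Prom1 on 5 with Dpysl5, and Iglon5 on 7 with Dpysl4. The other nearest genes lie neither on the chromosome of their member nor on that of Sox11. The part of chromosomal position in these values was not tested.

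**Figure D4:**
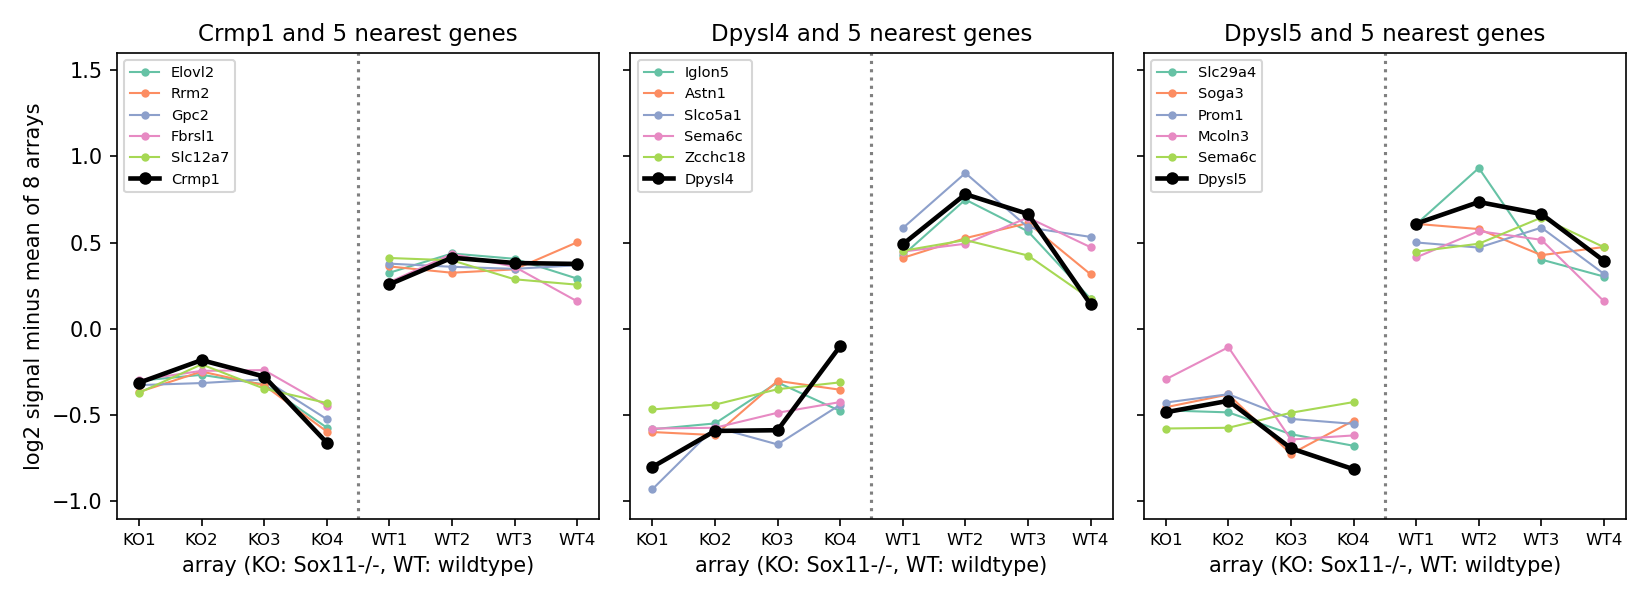
Log2 signal minus the gene's mean over 8 arrays (vertical axis) for Crmp1, Dpysl4 and Dpysl5 (black) and the 5 genes nearest to each (colours), with Sox11-/- arrays left of the dotted line and wildtype arrays right of it. Lines join the points of a gene within a genotype and imply no order of replicates. The coloured genes follow the black ones because they were picked by that likeness, and Crmp1 is at its lowest on Sox11-/- replicate 4, where Dpysl4 is at its highest Sox11-/- value.

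The genes next to the members on their chromosomes were looked at too. Of the 30 measured genes that lie nearest, 3 on each side of each member in RefSeq's order, limma called 0 (1.44% of all genes). Their differences ran from -0.34 to 0.18. An unadjusted limma p under 0.05 was reached by 2 of them (16.7% of all genes). These were Jakmip2 beside Dpysl3, at -0.34 (limma adjusted p = 0.212), and Agbl5 beside Dpysl5, which encodes a tubulin deglutamylase, at -0.17 (limma adjusted p = 0.249). These neighbours were looked up after the members' values were seen.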

How the data were processed

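The deposited table holds 1 log2 signal per probe set (27478) and array, made by the authors with RMA, beside which Partek is named, per the submitters' processing notes. The sources used here give no versions, settings, filters or genome build. The log2 scale was read from the values (4.30 to 14.62, array medians 7.29 to 7.31). RMA quantile-normalizes the arrays, so a shift of all genes together is hidden, and low signal understates differences. The number of arrays limits the precision.

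Probe sets were named from the platform annotation, updated by gene identifier to RefSeq's GRCm38.p6 table, where 72 symbols had no entry and 0 changed. Of them 21103 had 1 symbol, 1531 several and 4844 none. Each of 19356 genes was represented by its probe set of highest mean signal, with no filter on level. The comparison used lmFit and eBayes of limma 3.58.1 (R 4.3.3; genotype only, two-sided), with Benjamini-Hochberg adjustment over all genes and a threshold of 0.05. The code was tested on simulated data. Figures used matplotlib 3.10.9.

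The family, the 12 gene lists and the tests were chosen with earlier results of these data known. The text names the members, Sox11, called list genes and the 3 lowest p-values per list, and the 5 nearest profiles. Sema3a, Cdk5, Gsk3b, Klc1, Tuba1a, Tubb3, Dpys, Des and Map1b were named after their values were seen. Some genes of the lists were not used here, and the counts are over the measured ones. Labels call the replicates independent without naming embryos or litters, so p-values measure the spread between these samples. Alternatives were further normalization, a level filter, other probe set rules, other moderation, array weights, a replicate block, Y-linked signal (of the 4 planned genes, Eif2s3y, Kdm5d and Uty were used) as a covariate, and leaving out each array. Replicates with the same number in both genotypes deviated together at r = -0.17, 0.09, -0.04 and 0.06 across genes, so the numbers were not taken to pair samples.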

Additional observations from a re-analysis of the deposited data

Results flagged for a closer look

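In 9 of 110 groups of 4 arrays (55 genes in each genotype) the highest or lowest array stood apart from the other 3 by Dixon's test, which chance gives in about 1 of 20 groups. None of the 5 CRMP genes was among them. Tubb2b had its lowest Sox11-/- value in replicate 3 (10.89, next 11.08) and its lowest wildtype value in replicate 4 (11.37, next 11.72). Gpc2 was lowest in Sox11-/- replicate 4 (9.0, next 9.20). Meox2 was highest in Sox11-/- replicate 3 (9.34, next 9.10) and Chn1 in Sox11-/- replicate 2 (9.06, next 8.94). In wildtype ridges Slco5a1 was highest in replicate 2 (7.68, next 7.36), Plxna3 lowest in replicate 2 (9.04, next 9.18), Cdk5r1 highest in replicate 3 (6.94, next 6.84) and Rhag highest in replicate 3 (7.38, next 6.87).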

How the results depend on the processing

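The 5 CRMP differences kept their sign and moved by less than the SD within a genotype under each of the 18 alternatives. Leaving out 1 array gave -1.27 to -1.13 for Dpysl5, -1.18 to -0.95 for Dpysl4, -0.77 to -0.61 for Crmp1, -0.23 to -0.04 for Dpysl3 and -0.10 to -0.05 for Dpysl2. Dpysl5 was called lower under each alternative, Crmp1 under each but the model without moderation, and Dpysl4 under each but that model, the replicate block and the fit without wildtype replicate 2. The count of members called lower was thus 1 without moderation, 2 with the replicate block and 2 to 3 without 1 array.

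Over all genes 279 were called, 209 lower and 70 higher. Without moderation these were 55, 48 and 7, with the Y-linked covariate 151, 117 and 34, and with the replicate block 166 called and 117 lower, while a test of every probe set called 41 higher. Without 1 array they were 107 to 243 called, 88 to 192 lower and 17 to 55 higher.

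Without moderation 0 semaphorin-3 ligands were called higher, and 0 binding partners and 0 microtubule regulators lower. The replicate block left 0 binding partners and 1 microtubule regulator. Microtubule regulators called lower were 1 after a further quantile normalization, 0 when every probe set was tested and 0 with the Y-linked covariate. Without 1 array the calls were 0 to 1 for semaphorin-3 ligands, 0 to 2 for binding partners and 0 to 1 for microtubule regulators. The cause of these changes was not tested, and the fits without 1 array also rest on fewer arrays.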
